A study of Mus musculus with 11 samples.

Results

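The genes of antigen presentation by the major histocompatibility complex (MHC, called H2 in the mouse) were followed in mouse colorectal organoids, with or without a substance labelled NAP. Members were the protein-coding genes whose names begin with H2-, together with B2m, Tap1, Tap2, Tapbp, Psmb8, Psmb9, Psmb10, Nlrc5, Ciita, Cd74 and Erap1. This gave 47 of the 47131 genes in the count table, of which 35 belong to class I, 11 to class II and 1 to neither class. A further 6 genes with H2- names are not annotated as protein-coding and were left out, H2-Ea among them. The organoids are epithelial cultures in Matrigel, set up from colon tissue of 6- to 8-week-old female C57BL/6J mice. NAP was given at 10 pM for 48 h in 6 libraries, and 5 libraries were controls. The labels do not spell out NAP, and they call the controls untreated in one place and vehicle-treated (phosphate-buffered saline) in another. All 11 libraries carry batch label 1, no genetic change is recorded, and the question was whether these transcripts differed in level between NAP and control organoids.

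MHC class I molecules present peptides from inside the cell to CD8 T cells. Each is a heavy chain paired with beta-2 microglobulin, loaded in the endoplasmic reticulum with peptides that the proteasome cuts, the TAP transporter imports, Erap1 trims and tapasin helps to fit. MHC class II molecules present peptides from endosomes to CD4 T cells, with the invariant chain Cd74 guarding the groove and H2-DM exchanging peptides. Nlrc5 switches on class I genes and Ciita switches on class II genes, and interferon gamma induces both. Gut epithelium is known to carry class I molecules at rest and class II molecules mainly during inflammation, whereas dendritic cells, macrophages and B cells carry class II at rest.

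Gene count totals ran from 16546263 to 21947414 per library, and epithelial markers were high throughout, with 2593 ± 715 CPM of Epcam in NAP libraries and 2244 ± 865 CPM in control libraries (CPM, counts scaled to depth with TMM factors; mean ± SD, n = 6 NAP and 5 control libraries here and below). Fibroblast markers summed to 7.65 to 52.7 CPM in NAP libraries and 2.199 to 31.9 CPM in controls, and endothelial markers to 2.87 to 4.95 CPM in NAP libraries and 3.13 to 4.81 CPM in controls. The controls stood apart from each other in the balance of absorptive colonocyte and stem cell markers. A score of absorptive colonocyte minus stem cell markers (mean log2 CPM deviation) was -0.67, 1.52, -0.78, 1.11, 1.40 and 0.14 in NAP libraries 1 to 6, against -2.89, 2.97, -1.48, -4.15 and 2.83 in control libraries 1 to 5. Controls 2 and 5 thus lay highest, controls 1 and 4 lowest, and the NAP libraries between them. Estimates of genes described below that moved most with these controls are given without either pair. The pairs are the ends of a score built from these same libraries. Adjusted p-values without a pair therefore show how far an estimate depends on it, and are no separate test of NAP. Goblet cell markers (Muc2, Tff3, Fcgbp, Spink4, Agr2 and Clca1) summed to 3901, 1740, 3266, 7314 and 1660 CPM in control libraries 1 to 5. In NAP libraries they summed to 1512 to 4513 CPM. Muc2, Agr2 and Spink4 were higher in controls 1 and 4 than in controls 2 and 5, Tff3 and Clca1 were lower, and Fcgbp mixed. The score sets absorptive cells against stem cells and leaves goblet cells out. In bulk RNA, fewer cells of a type and less RNA per cell cannot be told apart.

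None of the antigen presentation genes passed the test of NAP against control, and class I and class II transcripts differed mainly in how much of them there was. B2m, tapasin and the leading class I heavy chains were abundant in both groups, although 15 of the 26 heavy chains had too few reads to be tested. Class II chains, Cd74 and both master regulators were scarce, at 0 to 99 reads per library. After the filter on low counts 24 of the 47 members were tested, 19 of class I, 4 of class II and H2-Ke6. The quasi-likelihood test of edgeR called 0 of these 24 at an adjusted p under 0.05, beside 2.12% of all 14840 tested genes (1.05% higher and 1.07% lower with NAP). At an unadjusted p under 0.05 there were 5 of 24, beside 23.6% of all genes. H2-Ab1 was the 1 on the higher side, beside 10.8% of all genes, and Psmb10, Psmb8, H2-DMa and H2-Ke6 were the 4 on the lower side, beside 12.7%. DESeq2 called 1 member, Psmb10 (adjusted p = 0.0140), beside 11.3% of all genes, and limma called 0 on voom (2.21% of all genes) and 0 on deposited FPKM (2.42 or 2.61% of all genes by pseudocount). The CPM of the groups overlapped for every tested member. They did not overlap for 4.71% of all genes, a share at which few or none of 24 genes would lack overlap. The same holds for the 0 of 24 called beside 2.12%, so neither count sets the members apart. The median log2 fold change (NAP minus control) was -0.09 over the 19 class I genes and 0.04 over the 4 class II genes, beside -0.07 over all tested genes, and 15 of 24 estimates lay below 0, beside 55.3% of all genes.

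**Figure D1:**
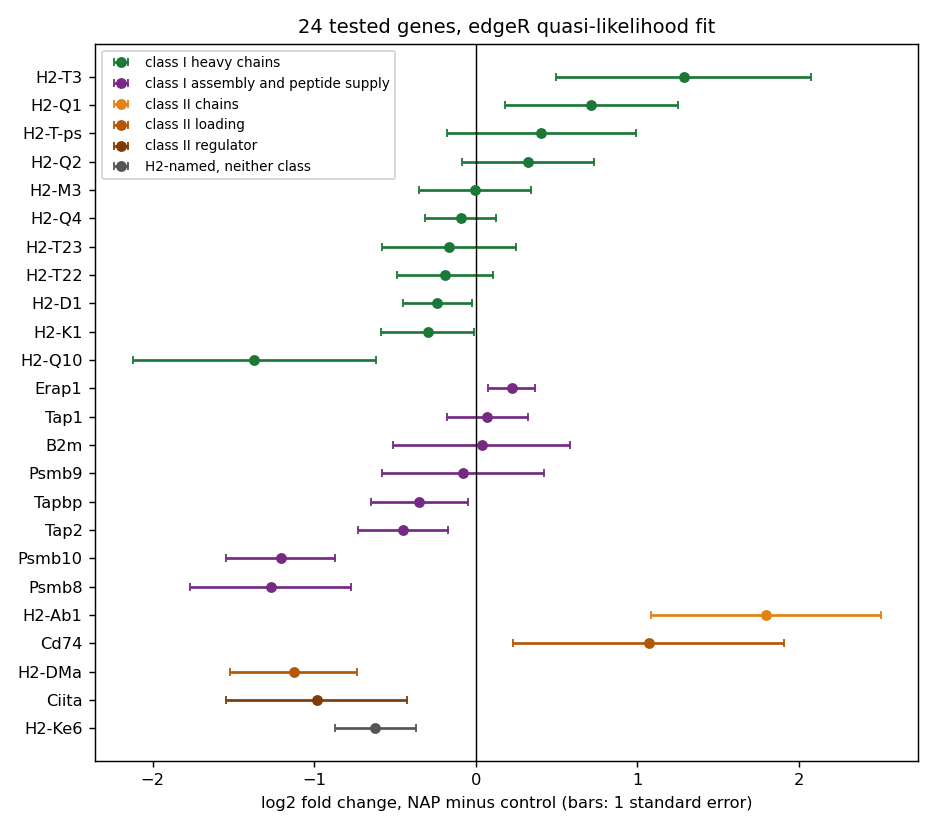
Log2 fold change (NAP minus control, horizontal axis) of the 24 tested genes, with 1 point per gene, bars of 1 standard error and colours by role. The estimates run from -1.37 for H2-Q10 to 1.80 for H2-Ab1, 15 of 24 lie below 0, and none had an adjusted p under 0.05.

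Among the class I heavy chains, the classical genes H2-K1 and H2-D1 were the most abundant, and both averaged somewhat lower in NAP libraries without passing the threshold. In deposited FPKM (fragment counts scaled for depth and gene length) H2-D1 made up 34.3% of all heavy chain transcripts over the 11 libraries and H2-K1 33.9%. H2-T23 followed with 17.3%, H2-Q2 with 5.32% and H2-Q10 with 3.72%. H2-K1 (chr17:34214986-34219321, GRCm39) was at 612, 793, 682, 698, 704 and 735 CPM in NAP libraries 1 to 6, against 507, 1284, 742, 436 and 1359.7 CPM in control libraries 1 to 5 (log2 fold change -0.30 ± 0.29, adjusted p = 0.554; ± after a log2 fold change is its standard error). All 6 NAP values lay inside the range of the controls. The highest library had 1.29 times the level of the lowest in the NAP group and 3.12 times in the control group. H2-D1 (chr17:35482070-35486473) was at 693, 641, 563, 582, 534 and 457 CPM in NAP libraries, against 512, 909, 658, 465.5 and 869 CPM in controls (log2 fold change -0.24 ± 0.21, adjusted p = 0.520). Here again controls 2 and 5 were highest, and NAP 6 had the lowest level of all 11 libraries.

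The windows around the annotated starts of 5 class I genes are shown because they include the most abundant chains and B2m, and also H2-T3 and H2-Q10, the tested heavy chains with the largest estimates in either direction. They are RefSeq sequence of GRCm38.p6, 250 bases before to 50 bases after the start, on the gene's own strand; RefSeq holds 2 windows for H2-K1 and the first listed is printed. Capitals mark matches, on either strand, to GGG, 1 base of any kind and ATTCCC (the form of an NF-kappa-B element), to GAA or GAAA followed by 2 bases of any kind and GAAA (spacings of an interferon response element), to TGACG (the core of the X2 box) and to CCAAT (the Y box); no marked match overlaps another.
H2-K1 (chr17:34000298-34000597, minus strand): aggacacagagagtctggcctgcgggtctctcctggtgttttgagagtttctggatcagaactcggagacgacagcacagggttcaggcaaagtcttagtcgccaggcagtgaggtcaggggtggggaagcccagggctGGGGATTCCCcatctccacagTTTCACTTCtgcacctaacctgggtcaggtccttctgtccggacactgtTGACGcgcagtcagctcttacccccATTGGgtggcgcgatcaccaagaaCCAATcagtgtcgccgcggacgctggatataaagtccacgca
H2-D1 (chr17:35262844-35263143, plus strand): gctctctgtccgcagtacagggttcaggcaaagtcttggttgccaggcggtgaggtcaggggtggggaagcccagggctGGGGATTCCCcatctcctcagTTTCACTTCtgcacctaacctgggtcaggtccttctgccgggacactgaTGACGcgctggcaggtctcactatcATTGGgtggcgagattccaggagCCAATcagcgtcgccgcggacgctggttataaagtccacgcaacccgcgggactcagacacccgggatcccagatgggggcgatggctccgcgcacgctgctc
H2-Q10 (chr17:35469839-35470138, plus strand): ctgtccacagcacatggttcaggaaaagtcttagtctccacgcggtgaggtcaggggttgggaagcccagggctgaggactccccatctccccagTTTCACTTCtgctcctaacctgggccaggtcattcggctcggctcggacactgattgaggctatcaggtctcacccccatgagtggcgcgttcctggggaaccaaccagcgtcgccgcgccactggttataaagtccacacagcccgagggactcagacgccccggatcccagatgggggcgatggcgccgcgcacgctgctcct
B2m (chr2:122147437-122147736, plus strand): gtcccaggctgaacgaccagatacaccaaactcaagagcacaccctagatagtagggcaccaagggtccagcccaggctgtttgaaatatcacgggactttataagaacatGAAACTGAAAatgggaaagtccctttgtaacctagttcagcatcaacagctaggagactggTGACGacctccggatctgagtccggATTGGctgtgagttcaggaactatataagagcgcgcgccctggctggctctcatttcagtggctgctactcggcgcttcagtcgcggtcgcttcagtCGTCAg
H2-T3 (chr17:36190102-36190401, minus strand): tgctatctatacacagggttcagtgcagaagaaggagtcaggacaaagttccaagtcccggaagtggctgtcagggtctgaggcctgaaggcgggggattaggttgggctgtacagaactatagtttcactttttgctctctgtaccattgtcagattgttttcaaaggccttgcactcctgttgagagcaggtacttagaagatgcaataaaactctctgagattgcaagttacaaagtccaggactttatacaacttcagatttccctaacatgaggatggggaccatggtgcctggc
In H2-D1 the NF-kappa-B form began 171 bases before the start and the shorter interferon spacing 150 before it; in H2-K1 they began 111 and 90 bases before its annotated start. The H2-K1 and H2-D1 windows were 90.7% identical over 227 aligned bases, with an unbroken shared run of 47 bases. H2-Q10 was 87.3% identical to H2-D1 over 291 bases, yet of the motifs searched its window held the shorter interferon spacing alone. B2m held the longer spacing 139 bases before its start, and the H2-T3 window held none of the 5 motifs.

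Of the 47 members 39 had such a window, 19 of them tested genes. The NF-kappa-B form was in 2 of the 19 (H2-K1 and H2-D1), beside 0.183% of 32851 windows in the whole RefSeq table. The shorter interferon spacing was in 5 of 19 (H2-K1, H2-D1, H2-Q4, H2-Q10 and H2-M3), beside 7.52% of windows. The longer spacing was in 4 of 19 (B2m, Erap1, H2-T23 and H2-T22), beside 3.44%. TGACG was in 8 of 19 beside 20.8%, and CCAAT in 13 of 19 beside 37.4%. The windows of Tap1 and Psmb9, which lie head to head on opposite strands, share 275 bases. A match is a description of letters, not of a bound factor, and windows of near-identical paralogues repeat each other.

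The nonclassical heavy chains ranged widely in level. H2-T23 (chr17:36340869-36343593), whose product is read by inhibitory receptors of natural killer cells, was at 205, 304, 162, 267, 267 and 152 CPM in NAP libraries, against 100.2, 452, 207, 84.1 and 423 CPM in controls (log2 fold change -0.16 ± 0.41, adjusted p = 0.837). H2-Q2 was at 108, 188, 80.6, 129, 142 and 99.6 CPM in NAP libraries, against 42.1, 160.1, 103, 29.1 and 164 CPM in controls (log2 fold change 0.32 ± 0.41, adjusted p = 0.662). In both genes controls 1 and 4 had the lowest levels of all 11 libraries. Without controls 2 and 5 the log2 fold change was 0.82 for H2-T23 and 1.12 for H2-Q2, and without controls 1 and 4 it was -0.64 and -0.16, with an adjusted p of 0.0822 or more in each. H2-Q10 (chr17:35780986-35785460), which encodes a secreted class I molecule known from liver, was at 3.24, 38.6, 21.5, 33.1, 29.5 and 74.1 CPM in NAP libraries, against 21.0, 171, 75.6, 6.92 and 158 CPM in controls. Its lowest value was in NAP 1 and its highest in control 2, and the difference in group means stayed within this spread (log2 fold change -1.37 ± 0.75, adjusted p = 0.290; 95% interval -2.996 to 0.25). The log2 fold change was -0.03 (adjusted p = 0.986) without controls 2 and 5, and -1.98 (adjusted p = 0.0568) without controls 1 and 4.

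H2-T3 (chr17:36496463-36501043) encodes the thymus leukaemia antigen, a class I-like molecule known on mouse gut epithelium that binds CD8 alpha homodimers. It was at 6.20, 11.3, 6.78, 4.25, 4.46 and 3.39 CPM in NAP libraries, against 0.0461, 6.22, 1.21, 0.366 and 4.80 CPM in controls (log2 fold change 1.29 ± 0.79, adjusted p = 0.344). All 6 NAP libraries lay above the control mean, but controls 2 and 5 fell within the NAP range while controls 1 and 4 had 1 and 8 reads. With controls 2 and 5 left out the log2 fold change was 3.48 (adjusted p = 0.0386, beside 5.32% of all genes called), and with controls 1 and 4 left out it was 0.62 (adjusted p = 0.435). H2-Q1 was at 18.99, 49.0, 54.7, 56.7, 34.9 and 32.2 CPM in NAP libraries, against 4.56, 46.7, 23.8, 6.50 and 43.8 CPM in controls (log2 fold change 0.72 ± 0.54, adjusted p = 0.441), again with controls 1 and 4 lowest. Its log2 fold change was 1.84 (adjusted p = 0.0565) without controls 2 and 5, and 0.14 (adjusted p = 0.805) without controls 1 and 4.

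The remaining tested heavy chains had group means that differed by less than the SD of either group. H2-Q4 averaged 39.2 ± 7.80 CPM in NAP libraries and 41.8 ± 12.7 CPM in controls. H2-T22, a ligand of some gamma delta T cell receptors, averaged 44.0 ± 10.1 CPM in NAP libraries and 50.3 ± 24.6 CPM in controls. H2-M3, which presents formylated bacterial peptides, averaged 5.76 ± 2.72 CPM in NAP libraries and 5.79 ± 1.86 CPM in controls. H2-T-ps, annotated as protein-coding in the table despite its name, averaged 3.89 ± 2.43 CPM in NAP libraries and 2.96 ± 2.21 CPM in controls. The adjusted p was 0.824 for H2-Q4, 0.729 for H2-T22, 0.997 for H2-M3 and 0.705 for H2-T-ps. H2 heavy chains are close paralogues, and the counting of reads with several matches (not given in the sources used here) leaves the split among them uncertain.

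The other 15 heavy chain genes did not pass the filter. H2-M1, H2-M10.3, H2-M10.4, H2-M10.5 and H2-M11 had no read in any library, and H2-M9, H2-M10.1, H2-M10.2 and H2-M10.6 had between 2 and 5 reads in all 11 libraries together; these genes are known from vomeronasal neurons. H2-Q6, H2-Q7, H2-Q9, H2-T24, H2-M2 and H2-M5 were detected at up to 39 reads in a library, the most being in H2-M5 in control 5 (2.79 CPM). A count of 0 allows up to 0.143 to 0.181 CPM in a NAP library and 0.137 to 0.181 CPM in a control library. These limits are 3 counts over the library total without the TMM factor, for counting error only. On the TMM scale they are higher in controls 2 and 5 (factors 0.855 and 0.848) and lower in controls 1 and 4 (1.18 and 1.24).

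Summed over all 26 heavy chains, levels were 940.4 ± 109 FPKM in NAP libraries and 1107 ± 543 FPKM in controls. The group means were thus less than 1 control SD apart, and the NAP libraries spanned 834 to 1126 FPKM inside the control span of 559 to 1690 FPKM. H2-K1 and H2-D1 alone summed to 636 ± 45.5 FPKM in NAP libraries and 763 ± 308 FPKM in controls.

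**Figure D2:**
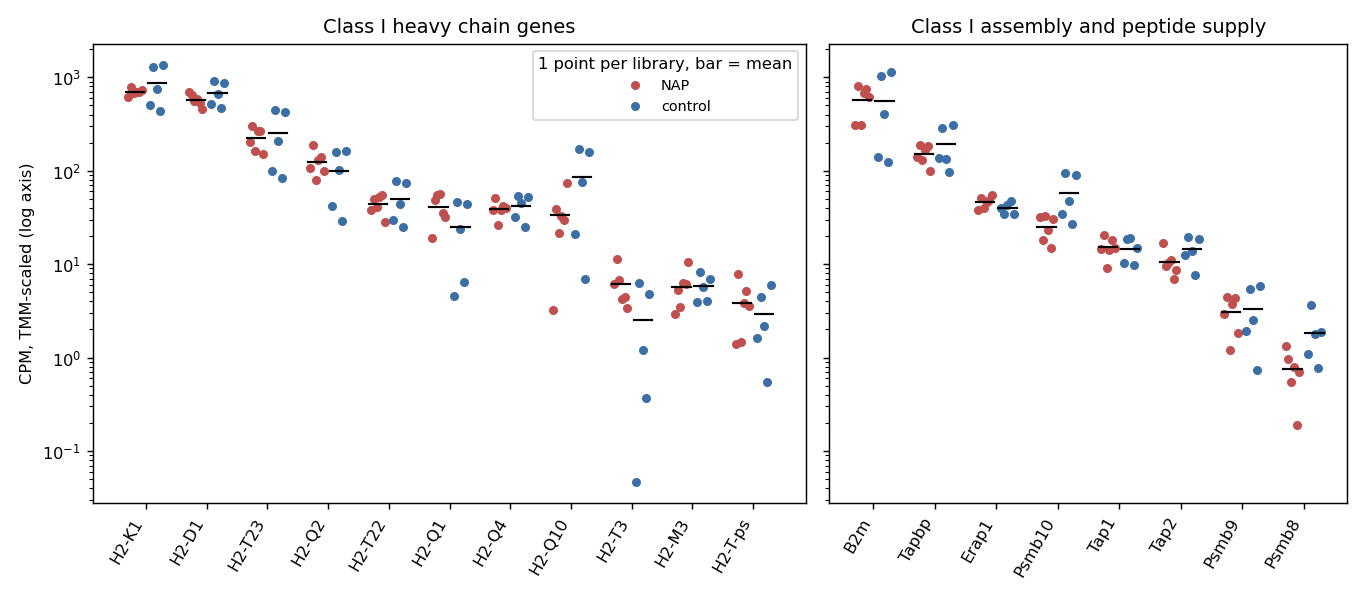
CPM (log axis) of the tested class I genes, heavy chains in the left panel and assembly and peptide supply in the right panel, with 1 point per library, NAP left of control and bars at the group means. For B2m the 6 NAP libraries lie between 309.6 and 810.3 CPM while the 5 controls spread from 123 to 1138 CPM.

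No gene of class I assembly passed the threshold in edgeR. The immunoproteasome transcripts Psmb8 and Psmb10 had the largest estimates and averaged lower in NAP libraries, and Tapbp and Tap2 averaged lower by less. B2m (chr2:121978168-121983563), the light chain shared by all class I molecules, had the highest level per length of all members (mean 647 FPKM). It was at 310.4, 810.3, 309.6, 675, 754 and 615 CPM in NAP libraries, against 139, 1023, 401, 123 and 1138 CPM in controls (log2 fold change 0.04 ± 0.55, adjusted p = 0.975). NAP libraries differed 2.62-fold among themselves and controls 9.22-fold, and the 95% interval of the log2 fold change, -1.15 to 1.22, leaves room for a change of 1 in either direction. The estimate was 1.41 (adjusted p = 0.0734) without controls 2 and 5, and -0.53 (adjusted p = 0.371) without controls 1 and 4. Tapbp, which encodes tapasin, was at 141, 189.8, 132, 166, 184 and 98.5 CPM in NAP libraries, against 139, 288, 135, 97.3 and 308 CPM in controls (log2 fold change -0.35 ± 0.30, adjusted p = 0.504). Controls 2 and 5 lay above every other library.

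Erap1, the aminopeptidase that trims peptides in the endoplasmic reticulum, varied little in either group. It was at 38.0, 50.8, 40.3, 46.3, 48.3 and 55.0 CPM in NAP libraries, against 39.5, 34.4, 42.8, 47.3 and 34.8 CPM in controls (log2 fold change 0.22 ± 0.15, adjusted p = 0.378), with a 1.45-fold span in NAP libraries and 1.37-fold in controls. Erap1 shares 840 bases with the abundant Cast gene on the other strand, and without a stated strand setting reads there cannot be assigned. Of the TAP transporter, Tap1 averaged 15.2 ± 3.85 CPM in NAP libraries and 14.5 ± 4.35 CPM in controls (log2 fold change 0.07 ± 0.25, adjusted p = 0.883). Tap2 was at 16.9, 9.46, 10.2, 11.002, 6.91 and 8.63 CPM in NAP libraries, against 12.4, 19.6, 13.7, 7.69 and 18.6 CPM in controls (log2 fold change -0.45 ± 0.28, adjusted p = 0.353), and 1 of 6 NAP libraries exceeded the control mean.

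The immunoproteasome subunits Psmb8, Psmb9 and Psmb10 replace the constitutive catalytic subunits in cells exposed to interferon gamma. Psmb10 (chr8:106662360-106665024) had the smallest p of all members: it was at 32.1, 18.4, 32.6, 23.1, 14.9 and 30.4 CPM in NAP libraries, against 34.5, 94.4, 47.1, 26.7 and 89.1 CPM in controls. The mean was 25.2 ± 7.56 CPM in NAP libraries and 58.4 ± 31.4 CPM in controls, 2.31-fold lower with NAP (log2 fold change -1.21 ± 0.34, unadjusted p = 0.00338, adjusted p = 0.0673). All 6 NAP libraries lay below the control mean, but NAP 1, 3 and 6 lay above control 4. The estimate depended on the controls: the log2 fold change was -0.49 (adjusted p = 0.232) without controls 2 and 5, and -1.57 (adjusted p = 0.0206, beside 8.28% of all genes called) without controls 1 and 4. Without control 4 alone it was -1.39 (adjusted p = 0.0411, beside 2.89% of all genes called).

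Psmb8 (chr17:34417169-34420428) was at 1.34, 0.958, 0.542, 0.790, 0.188 and 0.707 CPM in NAP libraries, against 1.11, 3.70, 1.77, 0.779 and 1.86 CPM in controls (log2 fold change -1.27 ± 0.50, adjusted p = 0.146). This is 3 to 24 reads per NAP library and 17 to 53 reads per control library, and the groups overlapped. Without controls 2 and 5 the log2 fold change was -0.66 (adjusted p = 0.416), and without controls 1 and 4 it was -1.65 (adjusted p = 0.0692). Psmb9 averaged 3.09 ± 1.35 CPM in NAP libraries and 3.28 ± 2.21 CPM in controls (log2 fold change -0.08 ± 0.50, adjusted p = 0.940). Summed over the 3 subunits, levels were 22.5 ± 4.79 FPKM in NAP libraries and 48.8 ± 26.9 FPKM in controls, most of it Psmb10.

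The constitutive subunits and the PA28 activator, followed as a separate list, held 1 called gene of 6 in edgeR and voom, Psmb5 (2.12% and 2.21% of all genes), and 3 in DESeq2 (Psmb5, Psmb6 and Psme1), which called 11.3% of all genes. Psmb5, the chymotrypsin-like subunit that Psmb8 replaces, fell to 47.1 ± 10.98 CPM in NAP libraries, against 78.9 ± 9.24 CPM in controls (log2 fold change -0.75 ± 0.17, adjusted p = 0.0457). The call was lost in 8 of 11 fits that left out 1 library, with log2 fold changes from -0.86 (without NAP 1) to -0.67 (without control 2, adjusted p = 0.114). It was also lost with upper-quartile scaling (adjusted p = 0.0539), no filter (0.101), the replicate block (0.157), controls 2 and 5 left out (0.0666) and the GC trend removed (0.0862, with a log2 fold change of -0.45). Of the 6 genes tested 5 had estimates below 0, with a median log2 fold change of -0.62 beside -0.07 over all genes. Psmb6, replaced by Psmb9, averaged 56.6 ± 14.0 CPM in NAP libraries and 96.5 ± 29.4 CPM in controls (adjusted p = 0.0757). Psme1, a PA28 subunit, averaged 50.001 ± 13.7 CPM in NAP libraries and 88.1 ± 31.4 CPM in controls (adjusted p = 0.0851). Lower means of constitutive subunits stood beside that of Psmb10, and whether the balance between them changed was not tested.

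Of 12 further class I loading partners, edgeR called 0 (5 estimates above 0 and 7 below, 5 at an unadjusted p under 0.05, beside 23.6% of all genes; median -0.07), limma on voom 0 and DESeq2 2, Lap3 and Sec61b, beside 11.3% of all genes. The smallest p-values were those of Sec61b, a subunit of the translocon, at 49.3 ± 14.0 CPM in NAP libraries and 85.5 ± 11.8 CPM in controls (adjusted p = 0.0566), and of Lap3, a cytosolic aminopeptidase, at 58.1 ± 4.50 CPM in NAP libraries and 83.6 ± 14.4 CPM in controls (adjusted p = 0.0600). Of 6 tested class I-like molecules outside the H2 names, edgeR, voom and DESeq2 each called 0. In edgeR 2 had an unadjusted p under 0.05, beside 23.6% of all genes, and the median log2 fold change was -0.42. Procr, the endothelial protein C receptor, averaged 0.668 ± 0.228 CPM in NAP libraries and 1.48 ± 0.676 CPM in controls (adjusted p = 0.116). Hfe, which regulates iron uptake, averaged 4.89 ± 0.948 CPM in NAP libraries and 8.95 ± 4.37 CPM in controls (adjusted p = 0.136).

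The class I regulator Nlrc5 did not pass the filter on low counts. It had 28, 10, 7, 7, 2 and 5 reads in NAP libraries 1 to 6, against 9, 18, 9, 7 and 1 reads in control libraries 1 to 5. Levels per library were 1.56, 0.599, 0.379, 0.425, 0.126 and 0.236 CPM with NAP and 0.415, 1.26, 0.389, 0.321 and 0.0716 CPM in controls. The groups overlapped throughout, NAP 1 stood above the other NAP libraries and control 2 above the other controls.

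Class II transcripts were scarce. The 11 class II genes together summed to 3.78 ± 1.69 FPKM in NAP libraries and 3.17 ± 1.57 FPKM in controls, beside 940.4 and 1107 FPKM for class I heavy chains. H2-Ab1, H2-DMa, Cd74 and Ciita passed the filter on low counts, and the other 7 did not. C57BL/6 mice do not make the alpha chain of the second class II molecule, I-E, from H2-Ea, so their class II molecule is I-A, encoded by H2-Aa and H2-Ab1.

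H2-Ab1 (chr17:34482201-34488392), the I-A beta chain, had the largest positive estimate of all members. It was at 1.90, 4.13, 1.68, 1.82, 1.82 and 0.707 CPM in NAP libraries, against 0, 1.40, 0.692, 0.275 and 0.573 CPM in controls, which is 34, 69, 31, 30, 29 and 15 reads with NAP and 0, 20, 16, 6 and 8 reads in controls. All 6 NAP libraries lay above the control mean of 0.587 ± 0.527 CPM, with a NAP mean of 2.01 ± 1.13 CPM, but NAP 6 fell below control 2 and the adjusted p was 0.151 (log2 fold change 1.80 ± 0.71, unadjusted p = 0.0252). The log2 fold change was 2.62 (adjusted p = 0.0722) without controls 2 and 5, and 1.21 (adjusted p = 0.178) without controls 1 and 4. H2-Aa, the alpha chain that it needs as a partner, had 1, 2, 4, 1, 0 and 0 reads in NAP libraries, against 0, 2, 0, 0 and 6 reads in controls. At 0 to 6 reads a difference in H2-Aa was not detectable at this depth. H2-Eb1 had 13, 5, 0, 7, 5 and 8 reads in NAP libraries, against 10, 10, 1, 6 and 10 reads in controls, and H2-Eb2 had 2 reads in control 2 alone.

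The whole list of haematopoietic markers, the cells that carry class II at rest, summed to 59.6 to 94.9 CPM in NAP libraries and 59.7 to 91.3 CPM in controls, most of it Cd14 (61.0 ± 10.1 CPM with NAP and 64.3 ± 12.2 CPM in controls). Of 12 markers 4 were tested, 3 with estimates above 0 and 1 below. Here edgeR called 0 (1 at an unadjusted p under 0.05, beside 23.6% of all genes) and voom 0. DESeq2 called 1, Itgam, beside 11.3% of all genes. Of the untested markers, Ptprc, Cd3e, Cd79a, Flt3 and Itgax had lower means with NAP, and Csf1r, Adgre1 and Ms4a1 had higher means. Ptprc, the pan-leukocyte marker, was at 0 to 0.189 CPM in NAP libraries and 0 to 0.788 CPM in controls, and the dendritic cell marker Itgax at 0 to 0.182 CPM in NAP libraries and 0 to 0.210 CPM in controls. Itgam, a myeloid marker, averaged 3.82 ± 1.71 CPM in NAP libraries and 1.48 ± 0.941 CPM in controls (adjusted p = 0.106), a difference in the same direction as that of H2-Ab1; its part in that estimate was not tested.

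Cd74 (chr18:60936921-60945724), the invariant chain, had 99, 9, 25, 13, 20 and 2 reads in NAP libraries, against 36, 7, 10, 23 and 1 reads in controls (log2 fold change 1.07 ± 0.84, adjusted p = 0.461). NAP 1 alone held 99 reads, and without NAP 1 the log2 fold change was 0.08. It was 0.63 without controls 2 and 5 and 2.24 without controls 1 and 4 (adjusted p = 0.673 and 0.186). H2-DMa (chr17:34338667-34358075), the alpha chain of the peptide exchanger, was at 5.03, 6.70, 3.69, 3.89, 5.47 and 3.77 CPM in NAP libraries, against 7.75, 17.0, 5.93, 3.53 and 17.8 CPM in controls (log2 fold change -1.13 ± 0.39, adjusted p = 0.112). All 6 NAP libraries lay below the control mean, controls 2 and 5 were highest, and control 4 was below every NAP library. Without controls 1 and 4 the log2 fold change was -1.48 (adjusted p = 0.0294), and without controls 2 and 5 it was -0.25 (adjusted p = 0.627).

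H2-DMa is an uncertain measurement, because 2915 of its bases are shared with Brd2 on the other strand. Brd2, a bromodomain protein gene, had 42762 reads over the 11 libraries beside 1376 for H2-DMa, at 199 ± 28.7 CPM in NAP libraries and 218 ± 65.1 CPM in controls (adjusted p = 0.713). The beta chain genes that pair with H2-DMa stayed near 0: H2-DMb1 had 2, 3, 9, 2, 0 and 0 reads in NAP libraries, against 4, 6, 15, 2 and 8 reads in controls, and H2-DMb2 had 0, 0, 0, 0, 0 and 14 reads in NAP libraries, against 0, 14, 0, 0 and 13 reads in controls. H2-Oa and H2-Ob, which restrain H2-DM, had 3 and 1 reads over all libraries. H2-DMb2 was detected in NAP 6 and in controls 2 and 5 and in no other library.

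The class II regulator Ciita (chr16:10297877-10348928) had 9, 10, 6, 11, 6 and 9 reads in NAP libraries, against 12, 27, 3, 15 and 23 reads in controls, or 0.503, 0.599, 0.325, 0.669, 0.377 and 0.424 CPM with NAP and 0.553, 1.89, 0.130, 0.687 and 1.65 CPM in controls (log2 fold change -0.98 ± 0.56, adjusted p = 0.305). Its controls 2 and 5 were again highest and control 3 lowest. Without controls 2 and 5 the log2 fold change was 0.11, so its sign rested on them. Ciita shares 858 bases with Dexi on the other strand, which averaged 3.44 ± 1.82 CPM in NAP libraries and 7.81 ± 0.773 CPM in controls (adjusted p = 0.0789).

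**Figure D3:**
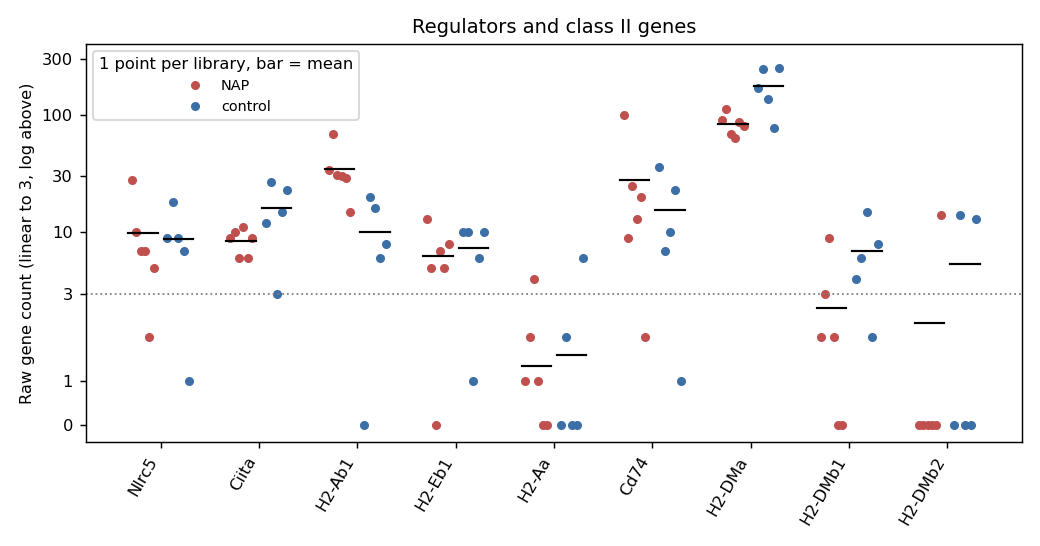
Raw gene counts per library of Nlrc5, Ciita and the class II genes with at least 16 reads in all (linear below 3 reads, log above; the dotted line marks 3 reads), with NAP left of control and bars at the group means. H2-Ab1 has 15 to 69 reads in NAP libraries and 0 to 20 in controls, and 99 of the Cd74 reads are in NAP 1.

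Class II processing enzymes, which also serve general lysosomal breakdown, were abundant and held 0 called genes of 7 tested in edgeR, voom or DESeq2 (3 estimates above 0 and 4 below, none at an unadjusted p under 0.05; median log2 fold change -0.09). Ctsd averaged 795 ± 142 CPM in NAP libraries and 1296 ± 787 CPM in controls (adjusted p = 0.236). Marchf8, a ubiquitin ligase that removes class II molecules from the surface, averaged 105 ± 7.27 CPM in NAP libraries and 86.5 ± 13.7 CPM in controls (adjusted p = 0.238). The factors that recruit Ciita and Nlrc5 to MHC promoters were all expressed, with 0 of 7 called in edgeR, voom or DESeq2 (3 at an unadjusted p under 0.05, beside 23.6% of all genes; median -0.25). Nfya averaged 54.3 ± 14.8 CPM in NAP libraries and 38.9 ± 2.90 CPM in controls (adjusted p = 0.144), and Nfyc averaged 28.6 ± 8.62 CPM in NAP libraries and 40.9 ± 5.76 CPM in controls (adjusted p = 0.152).

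Of 13 tested genes of the path from interferon gamma to MHC transcription 0 were called in edgeR, voom or DESeq2. In edgeR 8 estimates lay above 0 and 5 below, with a median log2 fold change of 0.22. There 3 had an unadjusted p under 0.05, beside 23.6% of all genes. The receptor Ifngr1 averaged 550.02 ± 162 CPM in NAP libraries and 357 ± 185 CPM in controls (adjusted p = 0.305). The kinase Jak2 averaged 147 ± 57.8 CPM in NAP libraries and 83.7 ± 27.4 CPM in controls (adjusted p = 0.145), and Jak1 averaged 137 ± 30.6 CPM in NAP libraries and 102 ± 10.2 CPM in controls (adjusted p = 0.164). The response side of the list was low in both groups: Cxcl9, Gbp2 and Ido1, genes that interferon gamma induces strongly, reached at most 22, 6 and 4 reads in any library. Irf1, the transcription factor between the signal and class I promoters, averaged 11.6 ± 6.85 CPM in NAP libraries and 19.3 ± 3.81 CPM in controls (adjusted p = 0.214).

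Of 13 genes of the type I and III interferon signal 0 were called by the same 3 tools. In edgeR 5 estimates lay above 0 and 8 below, with a median of -0.19. There 3 had an unadjusted p under 0.05, beside 23.6% of all genes. Irf3 averaged 51.3 ± 11.4 CPM in NAP libraries and 83.5 ± 27.7 CPM in controls (adjusted p = 0.0928). Ifnlr1, the receptor chain for type III interferon in epithelium, averaged 31.0 ± 6.32 CPM in NAP libraries and 23.1 ± 3.28 CPM in controls (adjusted p = 0.169).

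H2-Ke6, also known as Hsd17b8, lies in the H2 region but encodes a steroid dehydrogenase and belongs to neither class. It was at 33.5, 28.9, 41.1, 34.9, 26.3 and 32.9 CPM in NAP libraries, against 33.3, 78.1, 42.5, 29.2 and 70.3 CPM in controls (log2 fold change -0.62 ± 0.25, adjusted p = 0.161). As for Psmb10 and H2-DMa, controls 2 and 5 lay above all other libraries, and the estimate rested on them: without these 2 the log2 fold change was -0.06 (adjusted p = 0.839), and without controls 1 and 4 it was -0.92 (adjusted p = 0.0267).

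Across the 11 libraries most class I genes rose and fell with the colonocyte minus stem cell score. B2m had a Pearson r of 0.97 with the score (Spearman rho 0.96, permutation p = 1e-05, the smallest that 100000 permutations give; adjusted over 27 relations 0.00027). Without controls 1 and 4, the libraries farthest from the median score, r was 0.94, and within the 6 NAP libraries it was 0.96 (exact permutation p = 0.00139). H2-T23 had r = 0.95 (rho 0.91, adjusted permutation p = 0.00045), H2-Q2 r = 0.93 (rho 0.92, adjusted 0.00045) and H2-K1 r = 0.89 (rho 0.82, adjusted 0.00202). Without controls 1 and 4 they kept r of 0.88, 0.84 and 0.79. Within the 6 NAP libraries r was 0.83 for H2-T23, 0.88 for H2-Q2 and 0.69 for H2-K1 (exact permutation p = 0.0694, 0.0208 and 0.135, not adjusted). With p-values adjusted over all 14840 tested genes, 11 of 24 members passed for Pearson's r, each of them positive, beside 31.7% of all genes (2220 with a positive and 2482 with a negative r). By rank 9 of 24 passed, each of them positive, beside 22.0% of all genes (1455 with a positive and 1805 with a negative rho). The median r was 0.67 over the members and -0.02 over all tested genes. The permutations treat all libraries as independent, although controls 2 and 5, and NAP 2, 4 and 5, lay close to each other over all genes. The TMM scaling factors, by which library totals are multiplied, were 0.855 and 0.848 in controls 2 and 5 and 1.18 and 1.24 in controls 1 and 4. These factors too moved with the score, and their part in these relations was not tested.

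Other members went their own way along the score. H2-D1 had r = 0.67 over all libraries (permutation p adjusted over the 27 relations 0.0492; by rank rho 0.59, adjusted 0.111) and -0.08 within the NAP group. H2-T3 had r = 0.78 (adjusted permutation p = 0.0103; by rank rho 0.65, adjusted 0.083) but 0.45 without controls 1 and 4, so its relation rested on them. Psmb10 had r = 0.29 over all libraries and -0.91 within the 6 NAP libraries (exact permutation p = 0.0208, not adjusted), where NAP 2 and NAP 5, with the highest scores, had its lowest levels, whereas controls 2 and 5 had both the highest scores and the highest Psmb10. Erap1 (r = -0.21) and Cd74 (r = -0.44) were the only negative values among the 24 tested genes. Ciita correlated with H2-DMa by Pearson's r (0.70, adjusted permutation p = 0.0364) but not by rank (rho 0.37, adjusted 0.351), and hardly with H2-Ab1 (r = -0.03) or Cd74 (r = -0.27).

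**Figure D4:**
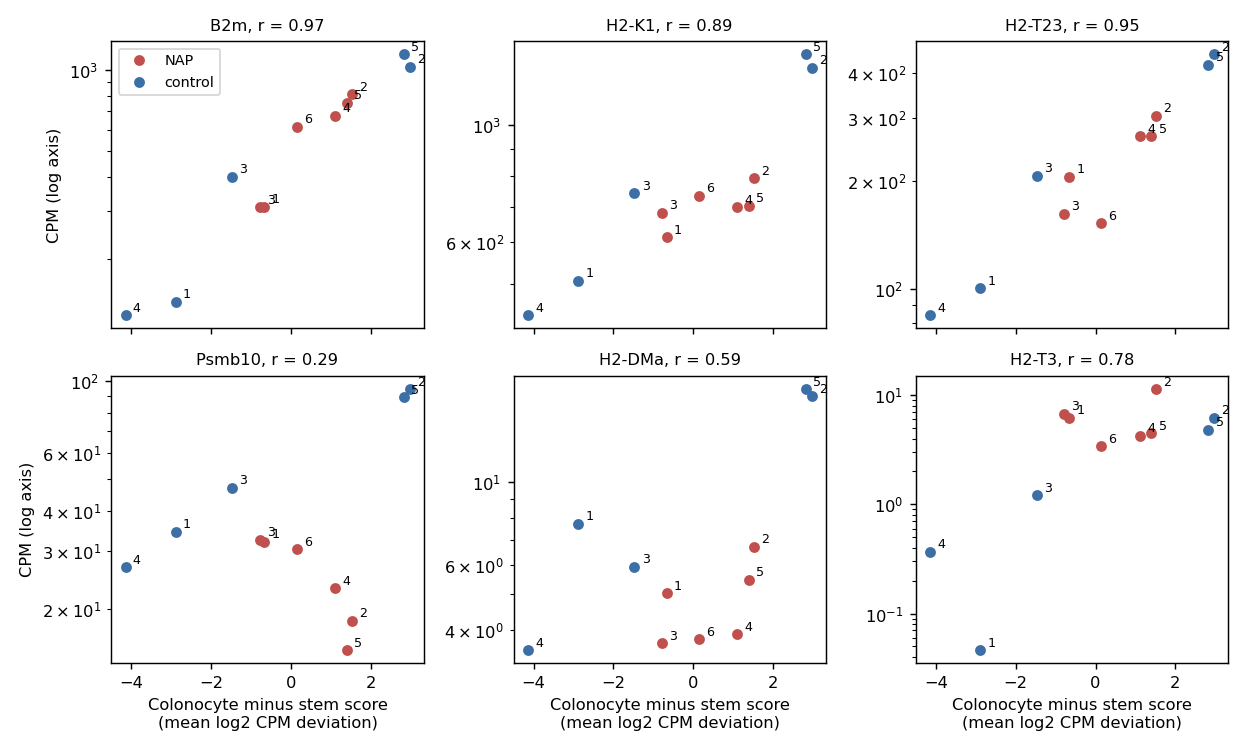
CPM (log axis) of 6 members against the colonocyte minus stem cell score, with 1 numbered point per library, NAP in red and control in blue. B2m, H2-K1 and H2-T23 rise along the score. Within the 6 NAP libraries the rise is less close for H2-K1 (r = 0.69) and H2-T23 (r = 0.83) than for B2m (r = 0.96). For Psmb10 the NAP libraries lie below controls 2 and 5, which have higher scores. For H2-T3 they lie above controls 1, 3 and 4, which have lower scores. No control has a score within the range of the NAP scores.

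With the score as a covariate, an alternative chosen after the data were seen, edgeR called 5 of the 24 members, beside 20.5% of all genes (3044). Psmb10 (log2 fold change -1.17, adjusted p = 0.0118), H2-DMa (-1.18, 0.00670), H2-Ke6 (-0.65, 0.0201) and Tapbp (-0.44, 0.0418) were then lower with NAP, and H2-T3 (1.72, 0.0254) was higher. Their estimates without the covariate were -1.21, -1.13, -0.62, -0.35 and 1.29. The share of members called, 5 of 24, lay near that of all genes, and the score was built from these same libraries. Ceacam1, 1 of its colonocyte genes, was itself higher with NAP (1650.2 ± 259 CPM in NAP libraries and 863 ± 81.7 CPM in controls, adjusted p = 0.0383 in edgeR without the covariate). That call was lost in 7 of 11 fits that left out 1 library (without control 1, 2, 3 or 5 or NAP 2, 4 or 5), with the replicate block (adjusted p = 0.137) and with the GC trend removed (adjusted p = 0.0623).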

How the data were processed

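Poly(A) RNA of 6 NAP and 5 control libraries was sequenced on an Illumina instrument, per the labels' protocols. The authors deposited a count table in whole numbers. Its reads passed through Trimmomatic 0.39, HISAT2 2.2.1 and featureCounts of Subread 2.0.8 on GRCm39, as listed in the submitters' processing notes. The strand setting, annotation release and handling of multi-mapping reads were not given in the sources used here. FPKM values, also deposited by the authors, were proportional to the count divided by gene length and by 1 constant per library. This divisor was 0.870 to 1.28 times the library's count total.

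All 14840 genes that passed filterByExpr were fitted with edgeR 4.0.16 (TMM, robust quasi-likelihood test, R 4.3.3) with no covariate, and p-values were adjusted (Benjamini-Hochberg) over all of them; standard errors are the log2 fold change over the square root of F. Library totals were 16546263 to 21947414, and precision rested on the spread between libraries as well as on depth. B2m, with 2693 to 15889 reads per library, had a standard error of 0.55. Erap1, with 486 to 1166 reads, had 0.15. Each library is a biological replicate per its label, which does not say which mouse or culture each came from, and the p-values rest on how these libraries vary. No pair of replicates agreed within sampling noise, but some lay much closer than others. Chi-square per gene was 7.68 between controls 2 and 5 and 44.2 between controls 1 and 4. Between these 2 pairs it was 276.7 to 323.5. Among NAP 2, 4 and 5 it was 14.7 to 24.4, and in other NAP pairs 63.9 to 152.9. The tests and permutations treat all libraries as independent. Whether close libraries share a mouse or culture is not stated. Alternatives used DESeq2 1.42.0, limma 3.58.1 on voom or on log2(FPKM + 0.1) and log2(FPKM + 1), other scalings and filters, a replicate block, and libraries left out. Correlations with the score were also run over all tested genes. Added after seeing the data were the marker score as a covariate and a per-library GC trend removed (lowess span 0.3; GENCODE M21 transcripts, a value for 84.0% of tested genes and all 24 tested members).

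The members, lists and tests were chosen with earlier results of these data known. Values in every library are printed for both regulators, and in each role group for up to 4 genes with the highest mean FPKM and up to 3 with the smallest p. In each other list, called genes and up to 2 of smallest p are named. Ifngr1, Irf1, Cxcl9, Gbp2, Ido1, Cd14, Ptprc, Itgax, Itgam, Brd2, Dexi and the goblet cell genes were added after their values were seen. The score is the mean log2 CPM deviation (prior count 2) of Car1, Car4, Slc26a3, Aqp8, Krt20 and Ceacam1 minus that of Lgr5, Ascl2, Smoc2, Axin2, Lrig1 and Sox9. Correlations used log2 CPM and two-sided permutation tests over 27 relations; Nlrc5, which was not tested, entered none.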

Additional observations from a re-analysis of the deposited data

Results flagged for a closer look

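In 50 groups of values examined (a tested member, or Nlrc5, in the NAP or the control libraries), 4 held a library whose gap to its nearest neighbour was large relative to the range of its group by Dixon's test; chance gives about 1 in 20. H2-Ab1 was at 4.13 CPM in NAP 2, against 0.707 to 1.90 CPM in the other NAP libraries. Cd74 was at 5.53 CPM in NAP 1, against 0.0943 to 1.36 CPM in the other NAP libraries. Nlrc5 was at 1.56 CPM in NAP 1, against 0.126 to 0.599 CPM in the other NAP libraries, and at 1.26 CPM in control 2, against 0.0716 to 0.415 CPM in the other controls. All 4 rest on low counts, at most 99 reads in a library.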

How the results depend on the processing

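In the main fit 315 of all genes were called, and 0 class I and 0 class II members. Calls over all genes numbered 89 with no filter, 1675 with DESeq2, 0 with the replicate block (2903 at an unadjusted p under 0.05), 824 without controls 2 and 5, 1315 without controls 1 and 4, 3044 with the score covariate, 41 with the GC trend removed, and 0 to 814 with 1 library left out, being 0 without control 1, 2 or 5 or NAP 2, 4 or 5. Class I calls numbered 1 with DESeq2, 1 without controls 2 and 5, 1 without controls 1 and 4, 3 with the covariate and 0 to 1 with 1 library left out. Class II calls numbered 1 without controls 1 and 4 and 1 with the covariate. The class I median log2 fold change of -0.09 (19 genes) became 0.34 without controls 2 and 5 and -0.53 without controls 1 and 4 (20 genes each). With 1 library left out it ran from -0.33 to 0.17 (19 genes at both ends). The class II median of 0.04 (4 genes) became -0.93 with no filter (11 genes) and -0.83 without controls 1 and 4 (6 genes). With 1 library left out it ran from -0.46 (without NAP 1, 4 genes) to 1.21 (without NAP 4, 3 genes). Without NAP 4 Ciita did not pass the filter, and 1.21 was the estimate of Cd74. These medians thus rest partly on which genes were tested. Samples of the same number did not consistently deviate together (correlations 0.42, 0.34, -0.07, -0.30 and 0.30, with numbers 1 and 5 alone matching best). So few correlations cannot decide whether samples were paired, and the labels state no pairing. The replicate block called 0 members.

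Of 336 log2 fold changes of single members under the other alternatives, 292 kept direction and side of the threshold, 10 passed it and 34 changed sign, in 14 genes; the causes were not tested. The sign changed for H2-M3 with DESeq2 (0.011), RLE (0.0096) and no filter (0.028). With the GC trend removed it changed for Tapbp (0.076), H2-T23 (0.13), H2-M3 (0.027), H2-K1 (0.0021), H2-Q4 (0.15), Psmb9 (0.20), Erap1 (-0.035) and B2m (-0.44), and with the covariate for Tap1 (-0.041). Without controls 1 and 4 it changed for Tap1 (-0.17), B2m (-0.53), H2-Q2 (-0.16) and H2-T-ps (-0.077). Without controls 2 and 5 it changed for Tapbp (0.32), Ciita (0.11), H2-D1 (0.11), Psmb9 (0.84), H2-K1 (0.35), H2-T22 (0.43), H2-T23 (0.82), H2-Q4 (0.22) and H2-M3 (0.35). Psmb9 and H2-T23 changed on log2(FPKM + 0.1) (0.10 and 0.12), log2(FPKM + 1) (0.032 and 0.12), voom (0.19 and 0.086) and the replicate block (0.18 and 0.20; also H2-T22, 0.034). Leaving out 1 library gave 25 sign changes in 263 estimates, with ranges of -0.22 to 0.46 for B2m, -0.26 to 0.18 for H2-M3, -0.23 to 0.031 for H2-Q4, -0.36 to 0.034 for H2-T22, -0.38 to 0.17 for H2-T23, -0.33 to 0.24 for Psmb9 and -0.038 to 0.19 for Tap1. Depth limits Nlrc5 and the class II genes, which, apart from H2-DMa, lie at 0 to 99 reads per library.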
